A study of Macaca mulatta with 20 samples.

Results

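Corpora lutea of rhesus macaques were compared after 9 days and after 1 day of human chorionic gonadotropin (hCG). The groups are hCG day 18 and hCG day 10, named by the luteal day of collection, and they were chosen by the group given in the sample labels. They hold 8 of the 20 arrays of the series, 4 in each. Females of both groups received hCG into muscle, 2 injections per day from luteal day 9. Over the full course the doses increased through 9 steps, 15 IU at first and 2880 IU at the end. The hCG day 18 group had 9 days of injections and the hCG day 10 group had 1 day, while collections on days 12 and 15 and an untreated luteal day 10 group, each of 4 arrays, serve here as context. The labels give 1 sex (female) and name no strain or age. Whether each gland of a group was from its own animal is not stated, and the p-values cover the spread among these glands alone. Days of hCG, luteal day and hormone dose increased together between the 2 groups, and their effects cannot be told apart.

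After ovulation the emptied follicle becomes the corpus luteum, a gland whose main product is progesterone. The early placenta makes chorionic gonadotropin, which binds the LH receptor of luteal cells, raises cyclic AMP and keeps the gland going when it would otherwise regress. Luteal cells take up or make cholesterol, move it into mitochondria with STAR, and turn it into pregnenolone and then progesterone, the last step by 3-beta-hydroxysteroid dehydrogenase. The gland also holds blood vessel cells, fibroblasts and macrophages, whose messenger RNA is part of every sample.

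Signals are intensities per probe set, and changes are log2 differences of signal + 16, hCG day 18 minus hCG day 10, with their standard errors, unless a signal is named. Tests are limma's moderated test in a fit of the 16 hCG arrays, with p-values adjusted by Benjamini-Hochberg over all 52707 probe sets, and a probe set changed when its adjusted p was under 0.05. A gene with several probe sets is given by the one with the smallest p. The tissue label was checked with 8 genes of luteal steroid and peptide synthesis, of which 5 had a probe set with a single gene symbol. STAR, FDX1, INHA and HSD3B2 lay between the 98.8th and 99.99th percentile of their arrays and PGR, the progesterone receptor, at the 57.7th (medians over the 8 arrays). LHCGR, CYP11A1, SCARB1 and VEGFA had no probe set with a single symbol in the annotation used and were not analysed here. Median signals of the arrays averaged 42.1 on hCG day 18 and 39.6 on hCG day 10. The share of probe sets with a signal under 16 averaged 30.9% on hCG day 18 and 32.0% on hCG day 10. None of 4 quality measures, 2 of them on the 3' bias of the actin and GAPDH controls, passed a two-sided exact permutation test (lowest p = 0.171, or 0.419 after adjustment, where 4 against 4 arrays can reach 0.0286). Arrays correlated at 0.967 to 0.979 within the 2 groups and at 0.950 to 0.969 between them. On the first principal component of the 16 hCG arrays, which held 25.1% of the variance, hCG day 18 arrays lay between 8.75 and 49.9 and hCG day 10 arrays between -59.7 and -8.76.

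After 9 days of hCG, 1005 probe sets were higher and 1324 lower than after 1 day. Together these 2329 are 4.42% of the 52707 tested, with 1.91% higher and 2.51% lower. The change was at least 2-fold for 941 of them (1.79% of those tested), 382 higher and 559 lower. Arrays of the 2 groups did not overlap for 6077 probe sets (11.5%), and for 2230 of those that changed. Among the 14132 genes with a probe set of their own, 470 were higher (3.33%) and 743 lower (5.26%), together 8.58%. The list counts below are to be set beside this share. The share of higher calls was 43.2% as deposited and 30.8% when every array was centred on its median (628 higher, 1414 lower). All probe sets together had a median change of 0.03, and the array medians differed by 0.07 on the log2 scale. The numbers of arrays set the precision, with a median standard error of 0.20. The largest changes among named genes ran to 5.09 (HP) on the higher side and to -4.18 (INSM1) on the lower side.

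**Figure D1:**
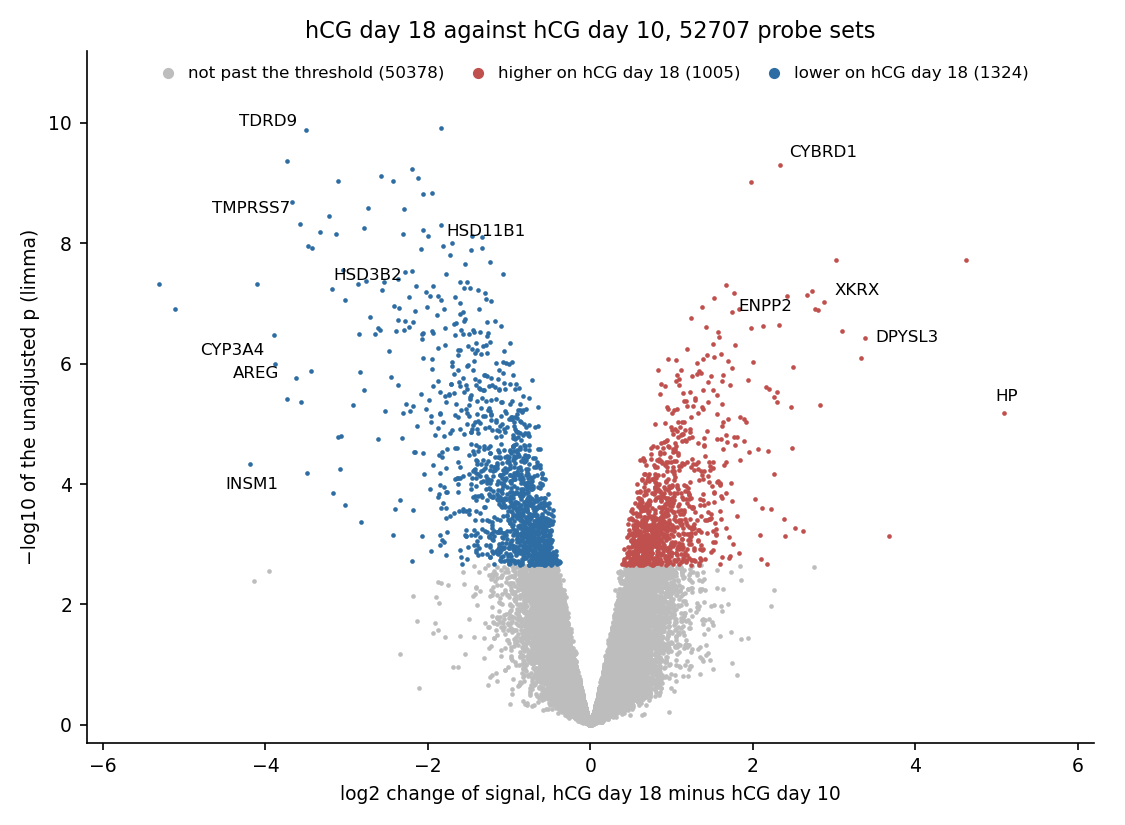
Every tested probe set by its log2 change, hCG day 18 minus hCG day 10 (x axis), and the −log10 of limma's unadjusted p (y axis), with 1005 higher probe sets in red, 1324 lower in blue and those not past the threshold in grey. HP lies farthest to the right at 5.09, and CYBRD1 and TDRD9 are among the named genes with the smallest p-values.

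The enzymes of progesterone synthesis did not move as a block. Of 12 measured genes, 3 were lower on hCG day 18 and 0 were higher, and the median change was -0.10. HSD3B2, which encodes the 3-beta-hydroxysteroid dehydrogenase of the last step, had signals of 2372, 2824, 1742 and 2421 on hCG day 18, against 11335, 8062, 10724 and 11173 on hCG day 10. All 4 hCG day 18 arrays were thus far below the lowest hCG day 10 array, a 4.41-fold decrease (log2 change -2.14 ± 0.22 SE, adjusted p = 5.0e-05). FDXR, ferredoxin reductase, which passes electrons to the mitochondrial P450 enzymes, was 704, 762, 1258 and 912 on hCG day 18, against 2094, 1718, 2481 and 2177 on hCG day 10 (-1.23 ± 0.18, adjusted p = 0.0010). NR5A2, an orphan nuclear receptor that drives steroidogenic genes, was 356, 534, 478 and 393 on hCG day 18, against 955, 965, 800 and 797 on hCG day 10 (-0.98 ± 0.18, adjusted p = 0.0046). The groups did not overlap for any of these 3 genes, as for 2230 of the 2329 probe sets that changed. The 3 calls held without each of the 8 arrays. Of the 3 probe sets of NR5A2, however, 2 were lower, and its brightest did not pass (-0.67, adjusted p = 0.057 in limma).

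STAR, the carrier of cholesterol into mitochondria, did not pass the test. Its signals were 15298, 18683, 16951 and 18617 on hCG day 18, against 15980, 13652, 16464 and 15802 on hCG day 10 (0.17 ± 0.18, adjusted p = 0.74). These signals lie at the very top of the range of the arrays. FDX1, ferredoxin, also missed the threshold (0.41 ± 0.15, adjusted p = 0.16), as did POR, the electron donor of microsomal P450 enzymes (0.42 ± 0.20, adjusted p = 0.29). Of 6 measured genes of androgen and oestrogen synthesis, 0 passed. CYP19A1, aromatase, averaged 10324 on hCG day 18 and differed by 0.10 ± 0.25 (adjusted p = 0.91), and CYP17A1, the 17-alpha-hydroxylase, by 0.96 ± 0.36 (adjusted p = 0.16). ESR2, an oestrogen receptor, differed by 0.42 ± 0.29 (adjusted p = 0.54).

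The steroid inactivation list had 1 lower gene among 6 measured, HSD11B1, which acts in the opposite sense, and the other 5 did not pass. HSD11B1, which turns inactive cortisone back into cortisol, had signals of 2201, 2882, 2579 and 3113 on hCG day 18, against 8006, 7614, 7094 and 6909 on hCG day 10. The spread within each group was small beside this 2.76-fold difference (-1.46 ± 0.14, adjusted p = 2.1e-05). CYP3A4, a P450 enzyme of steroid and drug oxidation, was among the 12 genes with the largest decreases. It had signals of 47.2, 314, 279 and 152 on hCG day 18, against 2958, 3358, 3397 and 1397 on hCG day 10 (-3.88 ± 0.50, adjusted p = 0.00030). Of its 4 probe sets, 2 were lower and the other 2 did not pass. Related CYP3A genes are close in sequence, so the source of this signal within the family is uncertain.

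Of 15 measured genes of cholesterol synthesis and uptake, 4 were higher and 1 was lower (33.3% of them, against 8.58% of all named genes), with a median of 0.23, and all 5 lay close to the threshold. The higher ones were FDFT1 (squalene synthase, 0.74 ± 0.19, adjusted p = 0.041), EBP (a sterol isomerase, 1.06 ± 0.28, adjusted p = 0.046), MVD (mevalonate decarboxylase, 1.34 ± 0.36, adjusted p = 0.048) and INSIG1, the sterol sensor that holds back this pathway (1.05 ± 0.27, adjusted p = 0.038). HSD17B7, which acts in both cholesterol and oestradiol synthesis, was lower (-0.94 ± 0.24, adjusted p = 0.036). FDFT1 had signals of 4653, 4965, 5508 and 7422 on hCG day 18, against 2675, 3101, 4239 and 3463 on hCG day 10, so that the groups were separate but close. None of the 5 calls held in each fit that left out an array. The count of 5 became 0 without hCG day 18 array 3 or hCG day 10 array 2, and was 1 without any one of the other arrays but hCG day 10 array 3. Without that array it was 5, but HSD17B7 was lost and another gene of the list passed. The highest adjusted p-values of the 5 genes in these fits were 0.117 to 0.136.

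Among 13 measured genes of cholesterol transport and efflux, 4 were higher and 1 was lower (median 0.47). PLTP, the phospholipid transfer protein, had signals of 476, 420, 635 and 439 on hCG day 18, against 315, 241, 277 and 266 on hCG day 10 (0.79 ± 0.15, adjusted p = 0.0065), and held without each array. NPC2, a lysosomal cholesterol carrier (0.69 ± 0.16, adjusted p = 0.019), NR1H3, the oxysterol receptor LXR-alpha (0.82 ± 0.21, adjusted p = 0.039), and APOE, a lipid-carrying apolipoprotein also made by macrophages (0.99 ± 0.27, adjusted p = 0.047), were higher too. APOA1, the main protein of high-density lipoprotein, was lower (-0.79 ± 0.19, adjusted p = 0.029). The calls of these last 4 genes were each lost without at least 3 of the 8 arrays. Every array of the 2 groups ended at least 1 of them, with highest adjusted p-values of 0.0625 (NPC2), 0.0913 (APOA1), 0.120 (NR1H3) and 0.129 (APOE), and without hCG day 18 arrays 2 or 3 or hCG day 10 arrays 2 or 4 the count of 5 was 2, and it was 3 without hCG day 18 arrays 1 or 4 or hCG day 10 array 1.

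Several genes known to respond to the ovulatory LH surge were lower after the longer treatment. Of 15 measured EGF family ligands and ovulatory genes, 4 were lower and 1 was higher, with a median of -0.12. AREG, amphiregulin, an EGF receptor ligand induced by LH in follicles, had signals of 1053, 749, 357 and 343 on hCG day 18, against 8659, 6064, 7309 and 6598 on hCG day 10. The groups lay far apart, a 12.4-fold decrease (-3.63 ± 0.49, adjusted p = 0.00045). The matrix-binding genes TNFAIP6 (-1.31 ± 0.22, adjusted p = 0.0026) and PTX3 (-1.64 ± 0.31, adjusted p = 0.0059), which stabilise the matrix of the ovulating cumulus, were lower as well. RUNX1, a transcription factor induced at ovulation, was lower at -1.07 ± 0.21 (adjusted p = 0.0070). EGF itself went the other way, with signals of 48.8, 179, 98.0 and 184 on hCG day 18, against 14.1, 13.5, 23.7 and 11 on hCG day 10, values near the dim end of the arrays (2.06 ± 0.35, adjusted p = 0.0028). The 5 calls held without each array.

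In the cAMP pathway 3 of 27 measured genes were higher and 0 lower (11.1%, against 8.58% of all named genes, median 0.18). ADCY1, an adenylyl cyclase, had signals of 123, 112, 113 and 122 on hCG day 18, against 51.7, 65.3, 52.4 and 66.0 on hCG day 10 (0.84 ± 0.11, adjusted p = 0.00036). CREM, a cAMP-responsive transcription factor, was higher at 0.80 ± 0.16 (adjusted p = 0.0077), although its other 5 probe sets ran between -0.23 and 0.39 and did not pass. ADCY5, a second adenylyl cyclase, was higher at 0.94 ± 0.24 (adjusted p = 0.034), a call lost without any one of hCG day 18 arrays 1, 2 and 4 or hCG day 10 arrays 1, 2 and 3 (adjusted p up to 0.109). None of 15 immediate early and phosphatase genes passed the limma test, 3 of them being under 0.05 before adjustment, and 1 passed without hCG day 18 array 2. KLF4 differed by 0.67 ± 0.20 (adjusted p = 0.072) and FOSL2 by -0.70 ± 0.21 (adjusted p = 0.075).

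Messenger RNAs of 2 activin-binding proteins were lower. FSTL3, follistatin-like 3, had signals of 40.6, 68.9, 46.2 and 49.4 on hCG day 18, against 831, 317, 525 and 345 on hCG day 10, a 7.29-fold decrease (-2.87 ± 0.29, adjusted p = 4.9e-05). FST, follistatin, was 331, 722, 412 and 566 on hCG day 18, against 1199, 1594, 1097 and 1788 on hCG day 10 (-1.49 ± 0.21, adjusted p = 0.00073), and its 3 probe sets were all lower. INHA, the inhibin alpha subunit, did not pass (0.19 ± 0.18, adjusted p = 0.68), nor did INHBA, the inhibin and activin beta-A subunit (1.01 ± 0.35, adjusted p = 0.13). Over the 22 measured genes of inhibin, activin and BMP signalling, 3 were lower and 2 higher (median 0.13). The other 3 were ID4, a BMP target (lower, -0.63 ± 0.16, adjusted p = 0.034), SMAD6, an inhibitory SMAD (higher, 0.67 ± 0.16, adjusted p = 0.028), and TGFBR1, a TGF-beta receptor (higher, 0.74 ± 0.19, adjusted p = 0.031). Each of these 3 calls was lost without at least 5 of the arrays, every one of the 8 but hCG day 10 array 4 among them, with adjusted p-values up to 0.0909 for SMAD6, 0.0999 for TGFBR1 and 0.105 for ID4. Without hCG day 18 array 4 or hCG day 10 array 2 the count of 5 was 2, and it was 3 without any of the others but hCG day 10 array 4.

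IGF1, insulin-like growth factor 1, had signals of 910, 768, 674 and 684 on hCG day 18, against 2155, 2211, 1648 and 1824 on hCG day 10 (-1.35 ± 0.20, adjusted p = 0.00095). Its binding protein IGFBP1 moved the opposite way, with 15235, 14874, 13887 and 16632 on hCG day 18, against 8780, 3900, 5886 and 6990 on hCG day 10 (1.30 ± 0.23, adjusted p = 0.0041). IGF2R, which takes IGF2 to lysosomes, was higher at 0.80 ± 0.19 (adjusted p = 0.024), a call lost without hCG day 18 array 1 or 4 or hCG day 10 array 2 or 3 (adjusted p up to 0.0800). The IGF system thus held 2 higher and 1 lower of 14 measured genes (21.4%, against 8.58% of all named genes), with a median of -0.05.

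Of 19 peptide hormones and receptors, 2 were higher and 0 lower (10.5%, against 8.58% of all named genes, median 0.02). RLN2, relaxin, a luteal hormone of pregnancy, had signals of 13998, 16330, 14726 and 17346 on hCG day 18, against 2470, 9766, 8187 and 8380 on hCG day 10. The array at 2470 stood well below the other 3 of its group (1.28 ± 0.33, adjusted p = 0.034). PRLR, the prolactin receptor, was higher at 0.69 ± 0.17 (adjusted p = 0.031). The RLN2 call was lost without any one of the 4 hCG day 18 arrays (adjusted p up to 0.0892), in the fits of all 20 arrays (0.0891) and of the 8 arrays alone (0.111), and with an added constant of 1 (0.0651), and that of PRLR without hCG day 18 arrays 1 or 4 or hCG day 10 arrays 2, 3 or 4 (up to 0.0975). The count of 2 was 0 without hCG day 18 array 1 or 4, 1 without hCG day 18 array 2 or hCG day 10 arrays 2 or 4, and 3 without hCG day 18 array 3.

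Among 9 measured prostaglandin genes 2 were lower and 0 higher (median -0.01). HPGD, which breaks prostaglandins down, had signals of 298, 302, 343 and 645 on hCG day 18, against 1328, 790, 2899 and 1342 on hCG day 10 (-1.88 ± 0.38, adjusted p = 0.0095), and 3 of its 5 probe sets were lower. PTGDR, a prostaglandin D2 receptor, was dim at 26.3, 20.1, 23.6 and 12.4 on hCG day 18, against 128, 80.2, 158 and 73.9 on hCG day 10 (-1.74 ± 0.25, adjusted p = 0.00067). None of 10 progesterone receptor and cofactor genes passed, 6 had an unadjusted p under 0.05 in limma, and 1 passed without hCG day 18 array 2 or hCG day 10 array 1. PGR itself had signals of 63.6, 57.5, 50.8 and 65.6 on hCG day 18, against 89.3, 72.1, 57.0 and 108 on hCG day 10 (-0.35 ± 0.21, adjusted p = 0.45). PGRMC2, a membrane-associated progesterone-binding protein, differed by 0.45 ± 0.13 (adjusted p = 0.062) and NCOA2, a coactivator of steroid receptors, by 0.48 ± 0.15 (adjusted p = 0.083). S100A2, a calcium-binding protein, was lower at 146, 134, 141 and 116 on hCG day 18, against 487, 225, 591 and 467 on hCG day 10 (-1.53 ± 0.37, adjusted p = 0.025). Its call was lost without any array except hCG day 10 array 2 (adjusted p up to 0.0829).

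**Figure D2:**
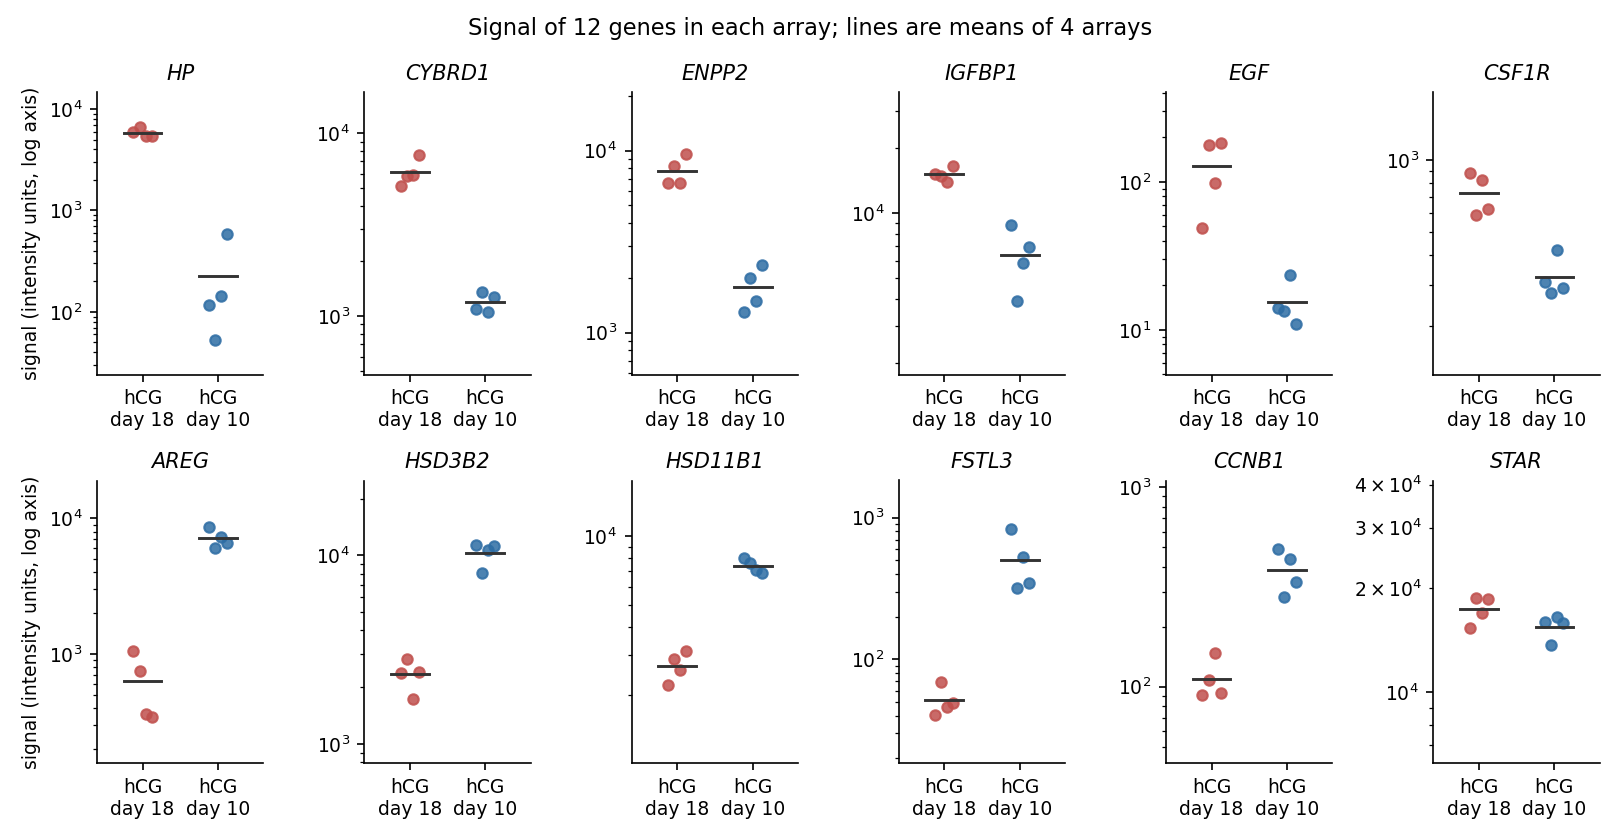
Signal in intensity units (log y axis, its own scale in each panel) of 12 genes in every hCG day 18 array (red) and hCG day 10 array (blue), with lines at the mean of 4 arrays. HP, CYBRD1, ENPP2, IGFBP1, EGF and CSF1R are higher on hCG day 18, AREG, HSD3B2, HSD11B1, FSTL3 and CCNB1 are lower without overlap, and STAR overlaps between the groups.

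The largest increase was that of HP, haptoglobin, which binds free haemoglobin. Its signals were 5934, 6695, 5409 and 5410 on hCG day 18, against 116, 52.9, 144 and 584 on hCG day 10. The hCG day 18 arrays lay close together, and the fold increase was 34.1 (5.09 ± 0.77, adjusted p = 0.0011). DPYSL3, a protein of the cytoskeleton in growing nerve endings, had signals of 1611, 2573, 2125 and 1501 on hCG day 18, against 123, 249, 157 and 168 on hCG day 10, a 10.4-fold increase (3.38 ± 0.40, adjusted p = 0.00015). KANK4, a member of a family of adhesion-linked scaffold proteins, had 320, 1321, 1309 and 1198 on hCG day 18, against 115, 156, 162 and 178 on hCG day 10, so 1 of its hCG day 18 arrays was far below the other 3 (2.46 ± 0.37, adjusted p = 0.00094). OMD, osteomodulin, a small proteoglycan of mineralised matrix, was higher in all 3 of its probe sets, the first with 377, 331, 288 and 652 on hCG day 18, against 27.5, 39.6, 45.9 and 57.3 on hCG day 10 (2.83 ± 0.42, adjusted p = 0.00089). CYBRD1, an iron reductase, is described with the iron genes.

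The other largest increases were those of MS4A8 (3.10 ± 0.36), XKRX (2.87 ± 0.31), PYURF (2.77 ± 0.30), CP (2.62 ± 0.61), MBLAC2 (2.52 ± 0.58), LVRN (2.39 ± 0.53) and EVI2A (2.29 ± 0.32). For MS4A8, XKRX and PYURF, 1 of 3 probe sets carried the change and the other 2 lay between -0.22 and 0.20. For MBLAC2, 1 of 5 probe sets was higher, 3 were below 0, and the others ran from -0.72 to 0.97, the brightest at -0.12. LVRN, laeverin, is an aminopeptidase of the placenta, and its signals were 440, 344, 675 and 152 on hCG day 18, against 35.0, 70.5, 103 and 32.7 on hCG day 10. MBLAC2 had 38.5, 149, 312 and 146 on hCG day 18, against 14.1, 11.1, 4.14 and 11.1 on hCG day 10, at the floor of the arrays, and the fitted change depended on the constant added before the logarithm (3.64 with 1 and 1.46 with 64). The call of MBLAC2 was lost without any one of hCG day 18 arrays 2, 3 and 4 and hCG day 10 array 3 (adjusted p up to 0.0700). That of LVRN was lost without any one of hCG day 18 arrays 1 and 3 and hCG day 10 array 4 (up to 0.0570). CP is described with the acute phase genes.

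The largest decrease was that of INSM1, a zinc-finger transcription factor of neuroendocrine cells. It had signals of 1.22, 11.5, 23.1 and 17.5 on hCG day 18, against 185, 2232, 310 and 445 on hCG day 10. The hCG day 18 signals were at the floor of the arrays and 1 hCG day 10 array was far above the others, so the size (-4.18 ± 0.75, adjusted p = 0.0041) is not well fixed and was -5.54 with an added constant of 1 and -2.90 with 64. TMPRSS7, a serine protease of the cell membrane, was 7.71, 10.3, 7.98 and 1.00 on hCG day 18, against 189, 187, 277 and 404 on hCG day 10 in one of its 2 probe sets, both lower (-3.58 ± 0.31, adjusted p = 1.4e-05). TDRD9, an RNA helicase known from the germ line, had 27.8, 17.7, 22.8 and 23.6 on hCG day 18, against 376, 411, 359 and 582 on hCG day 10 (-3.50 ± 0.24, adjusted p = 3.4e-06), with little spread in either group. TFPI2, an inhibitor of serine proteases in the matrix, had 623, 153, 117 and 279 on hCG day 18, against 3013, 2003, 1854 and 1916 on hCG day 10 (-3.09 ± 0.56, adjusted p = 0.0046), and 3 of its 5 probe sets were lower.

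Further large decreases were those of DAPL1 (-3.73 ± 0.54), LRRC15 (-3.43 ± 0.32), MFSD2A (-3.13 ± 0.28), ELF5 (-3.11 ± 0.51), DEFB122 (-3.07 ± 0.50) and ANKRD22 (-3.02 ± 0.32). ELF5, an ETS transcription factor of mammary and placental epithelium, had 42.8, 35.4, 25.4 and 47.7 on hCG day 18, against 702, 125, 479 and 859 on hCG day 10, and both of its probe sets were lower. LRRC15, a membrane protein of leucine-rich repeats, was at 19.0, 43.2, 19.5 and 38.2 on hCG day 18, against 959, 294, 495 and 335 on hCG day 10, while its second probe set did not pass. DEFB122, a beta-defensin gene, was at 315, 165, 240 and 286 on hCG day 18, against 3225, 2372, 2008 and 1444 on hCG day 10 in 1 of 3 probe sets. With AREG and CYP3A4 these make up the 12 largest decreases, and the 12 calls held without each array. Across all changed probe sets, 227 had a mean signal under 16 in one of the groups.

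Macrophage markers that passed were mainly higher after 9 days of hCG. Of 15 measured, 7 were higher and 1 (C1QA) was lower by the probe set with the smallest p. With the brightest probe set of each gene, 8 were higher and 0 lower, where 6.76% of all named genes passed, 2.5% higher and 4.26% lower. By the brightest probe set the median change was 1.10, and 14 of the 15 were above 0. CSF1R, the receptor for macrophage colony-stimulating factor, had signals of 882, 589, 830 and 624 on hCG day 18, against 306, 275, 418 and 290 on hCG day 10 (1.14 ± 0.18, adjusted p = 0.0019). VSIG4, a complement receptor of resident macrophages, had 1049, 484, 1039 and 571 on hCG day 18, against 318, 261, 340 and 235 on hCG day 10 (1.33 ± 0.24, adjusted p = 0.0047). In both genes hCG day 18 arrays 1 and 3 were the highest, and the groups did not overlap. The complement subunits C1QB (1.26 ± 0.27, adjusted p = 0.012) and C1QC (1.20 ± 0.21, adjusted p = 0.0040), which macrophages make, the signalling adaptor TYROBP (1.26 ± 0.27, adjusted p = 0.012), the endotoxin coreceptor CD14 (0.95 ± 0.22, adjusted p = 0.024) and lysozyme, LYZ (1.38 ± 0.35, adjusted p = 0.035), were higher. CD68, a lysosomal marker, differed by 0.60 ± 0.21 (adjusted p = 0.13), and MRC1, the mannose receptor, by 1.10 ± 0.30 (adjusted p = 0.051).

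C1QA, the third subunit, gave opposite answers in its 2 probe sets, and was 1 of 5 named genes with calls in both directions. The brighter one was higher, with a mean of 3480 ± 962 on hCG day 18 and 1626 ± 281 on hCG day 10 (SD, n = 4 each; 1.07, adjusted p = 0.0087 in limma). The dimmer one was lower at 94.2, 177, 79.7 and 134 on hCG day 18, against 736, 1032, 868 and 670 on hCG day 10 (-2.65 ± 0.31, adjusted p = 0.00013). The summed signal of the 15 macrophage genes was 12797 to 26634 on hCG day 18 and 6728 to 9302 on hCG day 10. MARCO, a scavenger receptor, was at the floor in both groups, with means of 10.5 on hCG day 18 and 13.5 on hCG day 10. In these whole-gland samples more macrophages and more RNA per macrophage cannot be told apart, and likewise fewer cells of a type and less RNA per cell for every gene described here. By the smallest p 8 genes passed, 7 higher and C1QA lower. This count of 8 was 6 without hCG day 18 arrays 1 or 3 or hCG day 10 arrays 2 or 4, and 10 without hCG day 18 array 2. The lower call of C1QA is part of each of these counts. The calls that were lost in such fits were CD14 (without hCG day 18 arrays 1 or 3 or hCG day 10 arrays 1, 2 or 4, adjusted p up to 0.0737) and LYZ (without hCG day 18 arrays 1, 3 or 4 or hCG day 10 arrays 2, 3 or 4, up to 0.107). The fit of the 8 arrays alone called 5 of the 15, C1QA as lower among them, without TYROBP (adjusted p = 0.0566).

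Other immune lists moved less. In antigen presentation 3 of 14 genes were higher and 0 lower (median 0.29), namely PSMB10, an immunoproteasome subunit (0.75 ± 0.19, adjusted p = 0.039), CD74, the invariant chain of class II molecules (0.95 ± 0.25, adjusted p = 0.041), and CTSS, the protease that trims it (0.93 ± 0.24, adjusted p = 0.042). Each array of the 8 ended at least 1 of these 3 calls (adjusted p up to 0.131), and the count was 0 without hCG day 18 array 1 or hCG day 10 arrays 2 or 3, and 1 without hCG day 18 arrays 3 or 4 or hCG day 10 array 4. By the brightest probe set PSMB10 differed by 0.14 (adjusted p = 0.80), and the fit of all 20 arrays ended its call and that of CD74 (adjusted p = 0.29 and 0.11). Macrophages also express CD74 and CTSS, and their markers were higher in the same arrays. CTSS had signals of 1355, 641, 1050 and 627 on hCG day 18, against 558, 485, 385 and 392 on hCG day 10, with hCG day 18 arrays 1 and 3 highest, as for the macrophage marker VSIG4 (1049, 484, 1039 and 571 on hCG day 18, against 318, 261, 340 and 235 on hCG day 10). CD74 had 3127, 2401, 1661 and 1900 on hCG day 18, against 1377, 1096, 990 and 1112 on hCG day 10. Its lowest hCG day 18 array was array 3, unlike that of CTSS. The part of macrophages in the antigen presentation genes was not tested. None of 18 interferon response genes passed, with 17 above 0 by the brightest probe set, a median of 0.33 and 6 under 0.05 before adjustment in limma, and 1 passed without hCG day 10 array 4. IRF1 and IRF7, interferon regulatory factors, differed by 0.47 ± 0.18 (adjusted p = 0.19) and -0.56 ± 0.19 (adjusted p = 0.13). Of 22 cytokines and chemokines with their receptors, 1 was lower and 1 higher (9.09%, against 8.58% of all named genes, median 0.35). TNFRSF12A, the receptor of the cytokine TWEAK, was lower at 324, 209, 462 and 177 on hCG day 18, against 2363, 944, 1447 and 1863 on hCG day 10 (-2.45 ± 0.33, adjusted p = 0.00043). The monocyte attractant CCL8 was higher at 1.21 ± 0.32 (adjusted p = 0.042), a call lost without any array except hCG day 18 array 2 (adjusted p up to 0.135). The count of 2 was 3 without hCG day 18 array 2, and 1 without hCG day 18 arrays 1 or 3 or any one hCG day 10 array.

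Complement and acute phase genes had 4 higher and 0 lower of 13 (median 0.43), HP being the first. CFD, complement factor D, had signals of 138, 116, 191 and 93.7 on hCG day 18, against 46.5, 39.0, 33.1 and 24.3 on hCG day 10 (1.52 ± 0.31, adjusted p = 0.0088). CP, ceruloplasmin, a copper-binding iron oxidase, was 291, 70.5, 143 and 103 on hCG day 18, against 2.23, 1.92, 11.3 and 22.8 on hCG day 10. With hCG day 10 at the floor, its change was 4.19 with an added constant of 1 and 1.46 with 64 (2.62 ± 0.61, adjusted p = 0.022), and 2 of its 4 probe sets were higher. C1S, a protease of the classical complement pathway, was higher at 0.83 ± 0.22 (adjusted p = 0.045). The call of CP was lost without hCG day 18 arrays 1 or 3 or hCG day 10 arrays 1 or 2 (adjusted p up to 0.0759) and that of C1S without any one of the 8 arrays (up to 0.125). The count of 4 was 2 without hCG day 18 arrays 1 or 3 or hCG day 10 arrays 1 or 2.

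Markers of the other cells of the gland gave few calls. None of 9 lymphocyte, 10 neutrophil and mast cell, 7 erythrocyte and platelet, and 12 surface epithelium and follicle markers passed, with 3, 1, 0 and 1 of them under 0.05 before adjustment in limma. Their median changes were 0.29, 0.13, -0.04 and 0.09. In fits without 1 array, 1 lymphocyte marker passed without hCG day 18 array 2 or hCG day 10 array 1, and 1 neutrophil or mast cell marker without hCG day 18 array 3. PTPRC, the leukocyte antigen CD45, missed the threshold at 1767, 538, 1320 and 784 on hCG day 18, against 566, 263, 274 and 501 on hCG day 10 (1.36 ± 0.37, adjusted p = 0.050). KLRD1, a natural killer cell receptor, differed by -0.34 ± 0.13 (adjusted p = 0.16). The calprotectin gene S100A8 had 492, 1595, 77.8 and 144 on hCG day 18, against 58.8, 30.0, 37.5 and 16.2 on hCG day 10, and its wide spread left an adjusted p of 0.053 (2.75 ± 0.76). HBB, beta-globin, differed by 0.66 ± 0.42 (adjusted p = 0.49), the platelet gene GP9 by 0.29 ± 0.17 (adjusted p = 0.45), the keratin KRT8 by -1.49 ± 0.56 (adjusted p = 0.17), and EPCAM, an epithelial adhesion gene at the floor, by 0.36 ± 0.19 (adjusted p = 0.39). HDC, histidine decarboxylase of mast cells, was at the floor on most arrays (-0.73 ± 0.46, adjusted p = 0.49).

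Vessel genes did not pass. Of 16 endothelial markers 0 changed (1 under 0.05 before adjustment in limma), with a median of 0.08 and summed signals of 11114 to 12777 on hCG day 18 and 9772 to 12878 on hCG day 10. VWF, PECAM1 and CDH5, defining genes of endothelium, differed by 0.09 ± 0.29, 0.12 ± 0.13 and -0.09 ± 0.23. SOX17 and CLDN5, which mark arterial and tight-junction endothelium, had arrays that did not overlap, but differed by 0.42 ± 0.16 (adjusted p = 0.18) and -0.38 ± 0.19 (adjusted p = 0.32). None of 18 angiogenic factors and receptors passed, with 4 under 0.05 before adjustment in limma, 1 passed without hCG day 10 array 4, and the median was 0.05. The Notch ligand JAG1 differed by 0.42 ± 0.12 (adjusted p = 0.060) and TEK, the angiopoietin receptor, by 0.45 ± 0.18 (adjusted p = 0.19). Of 10 smooth muscle and pericyte markers, 1 was lower, KCNJ8, a pericyte potassium channel, at 450, 421, 382 and 275 on hCG day 18, against 710, 681, 628 and 561 on hCG day 10 (-0.75 ± 0.15, adjusted p = 0.0093). Of 13 fibroblast markers, THY1 was lower at 993, 859, 830 and 927 on hCG day 18, against 1903, 1749, 2125 and 1359 on hCG day 10 (-0.96 ± 0.18, adjusted p = 0.0056), while DCN, decorin, differed by 0.66 ± 0.29 (adjusted p = 0.27). In these 2 lists 10% and 7.69% passed, against 8.58% of all named genes. Their medians were -0.09 and -0.02, and a second fibroblast marker passed without hCG day 18 arrays 2 or 3.

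**Figure D3:**
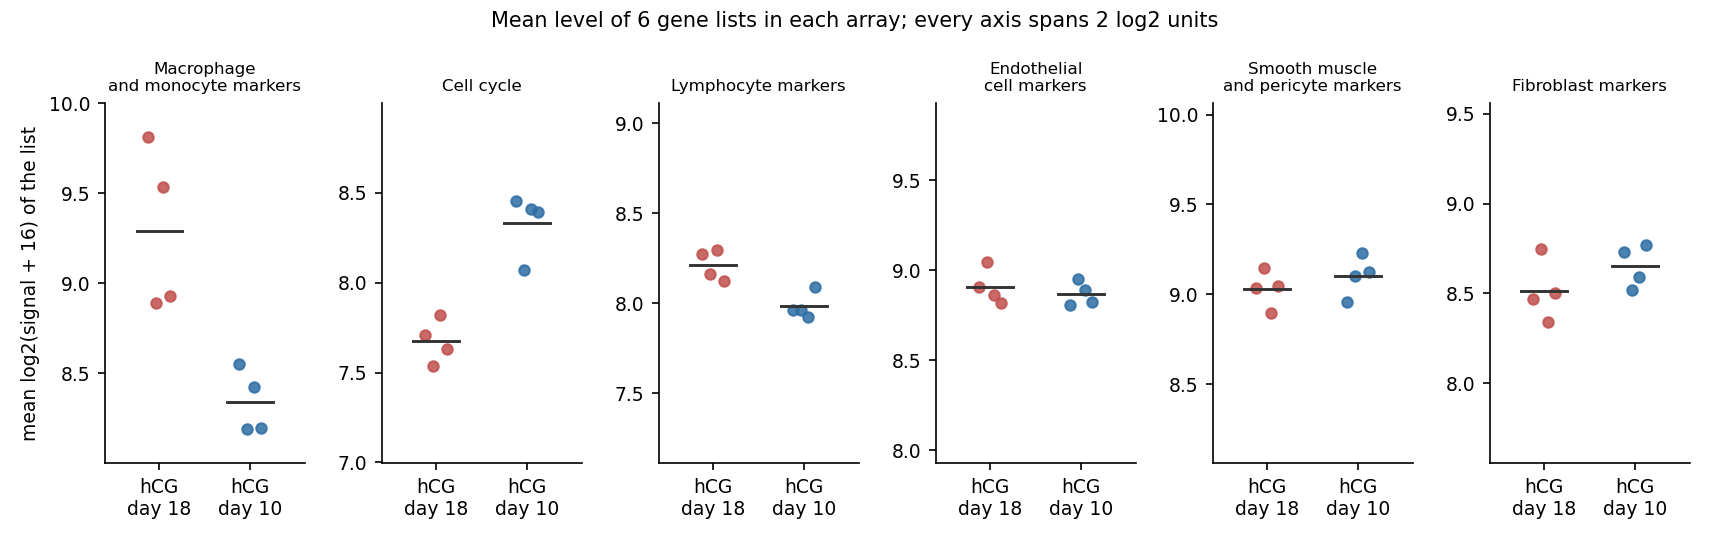
Mean log2(signal + 16) over the measured genes of 6 lists, brightest probe set of each gene, in every hCG day 18 array (red, left) and hCG day 10 array (blue, right), with lines at the mean of 4 arrays. Macrophage markers lie at 8.89 to 9.81 on hCG day 18 and 8.19 to 8.55 on hCG day 10. Cell cycle genes lie at 7.54 to 7.82 on hCG day 18 and 8.07 to 8.45 on hCG day 10. Lymphocyte markers lie at 8.13 to 8.30 on hCG day 18 and 7.92 to 8.09 on hCG day 10, also without overlap. The endothelial, smooth muscle and fibroblast lists overlap between the groups.

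Iron genes changed in both directions, 5 higher and 2 lower of 15 measured (median 0.29). CYBRD1, duodenal cytochrome b, which reduces iron at the cell surface, had signals of 5158, 5820, 5912 and 7632 on hCG day 18, against 1098, 1352, 1052 and 1267 on hCG day 10. Both groups were tight and the increase was 5.06-fold (2.34 ± 0.17, adjusted p = 5.0e-06), with the second probe set at 3.02. SLC40A1, ferroportin, the exporter of iron, was 5040, 3989, 5658 and 5538 on hCG day 18, against 2720, 2786, 2598 and 1878 on hCG day 10 (1.02 ± 0.18, adjusted p = 0.0045). FTL, the ferritin light chain that stores iron, was higher at 1.15 ± 0.18 (adjusted p = 0.0014), and BLVRB, which reduces biliverdin made from haem, at 1.41 ± 0.25 (adjusted p = 0.0034). TFRC, the transferrin receptor that brings iron in, was lower at 1688, 1710, 1711 and 2004 on hCG day 18, against 4265, 4783, 3105 and 3722 on hCG day 10 in 1 probe set (-1.14 ± 0.22, adjusted p = 0.0081), while its other probe set differed by 0.11. ALAS1, the first enzyme of haem synthesis, was lower at 1170, 1959, 2167 and 1850 on hCG day 18, against 4790, 5757, 6170 and 5096 on hCG day 10 (-1.63 ± 0.31, adjusted p = 0.0059). HFE, a partner of the transferrin receptor, was higher at 0.98 ± 0.23 (adjusted p = 0.021), a call lost without hCG day 18 array 4 or hCG day 10 arrays 1, 2 or 3 (adjusted p up to 0.0708). Macrophages also express SLC40A1 and FTL, and their markers were higher in the same arrays (summed signals above). The part of macrophages in the iron genes was not tested.

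Many cell cycle genes were lower. Of 23 measured, 10 were lower and 0 higher, with a median of -0.53, and 19 were below 0. CCNB1, a mitotic cyclin, had signals of 91.0, 108, 147 and 92.7 on hCG day 18, against 492, 282, 435 and 337 on hCG day 10 (-1.67 ± 0.20, adjusted p = 0.00014). TOP2A, the topoisomerase of dividing cells, had 86.6, 74.2, 140 and 55.8 on hCG day 18, against 419, 285, 314 and 327 on hCG day 10 (-1.79 ± 0.26, adjusted p = 0.00069). MKI67, the proliferation marker Ki-67, had 49.1, 34.9, 56.3 and 56.2 on hCG day 18, against 181, 123, 211 and 180 on hCG day 10 (-1.53 ± 0.23, adjusted p = 0.00097). In none of the 10 did the arrays of the groups overlap, as in 2230 of the 2329 probe sets that changed. The cyclins CCNB2 (-1.71 ± 0.24) and CCNA2 (-1.36 ± 0.19), the mitotic kinase CDK1 (-1.33 ± 0.19) and TYMS, thymidylate synthase (-1.42 ± 0.26), were lower and held without each array. CCNE2, a cyclin of DNA synthesis (-0.93 ± 0.20), MCM3, a replication helicase subunit (-0.86 ± 0.19), and CDKN2C, an inhibitor of cyclin-dependent kinases (-0.58 ± 0.15), were lower too. The count was 8 to 11 without 1 array. The losses were CCNE2 without hCG day 18 array 4 (adjusted p = 0.0513), MCM3 without hCG day 18 array 1 or hCG day 10 array 3 (up to 0.0541), and CDKN2C without hCG day 18 arrays 1, 2 or 4 or hCG day 10 arrays 2, 3 or 4 (up to 0.115). Among 24 apoptosis genes 1 was higher (4.17%, against 8.58% of all named genes, median 0.14). This was MCL1, a survival factor, at 666, 1063, 762 and 679 on hCG day 18, against 414, 468, 409 and 399 on hCG day 10 (0.86 ± 0.19, adjusted p = 0.018). Its other probe set differed by -0.20, and the call was lost without hCG day 18 array 2 (adjusted p = 0.0536) and under median-centring. The count of 1 was 2 without hCG day 18 arrays 2 or 4.

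Glucose-using genes were lower in part. Of 21 measured genes of glycolysis and glucose uptake, 4 were lower and 1 was higher (median -0.08). HK2, an insulin-regulated hexokinase, had signals of 432, 602, 415 and 580 on hCG day 18, against 1032, 1378, 1231 and 1410 on hCG day 10 (-1.30 ± 0.20, adjusted p = 0.0012). HK1, the constitutive hexokinase, was lower at -1.25 ± 0.20 (adjusted p = 0.0016) in 1 of 4 probe sets, the others lying between -0.37 and -0.07. GPI, glucose-6-phosphate isomerase, was lower at 570, 563, 648 and 669 on hCG day 18, against 3123, 1884, 2432 and 2775 on hCG day 10 (-2.01 ± 0.22, adjusted p = 7.6e-05) in 1 of 3 probe sets, the others differing by -0.08 and 0.54. PFKFB3, which sets the level of the glycolytic activator fructose 2,6-bisphosphate, was lower at -0.89 ± 0.24 (adjusted p = 0.045), a call lost without hCG day 18 arrays 2, 3 or 4 or hCG day 10 arrays 1, 2 or 4 (adjusted p up to 0.135). SLC16A1, a monocarboxylate transporter of lactate, was higher at 433, 624, 446 and 458 on hCG day 18, against 145, 141, 190 and 170 on hCG day 10 (1.51 ± 0.27, adjusted p = 0.0046).

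In lipid synthesis and oxidation 4 genes were lower and 1 was higher of 25 (median -0.04). ENPP2, autotaxin, which makes lysophosphatidic acid, had signals of 6645, 8207, 6595 and 9527 on hCG day 18, against 1293, 1988, 1489 and 2358 on hCG day 10, a 4.38-fold increase (2.13 ± 0.25, adjusted p = 0.00012) seen in all 3 probe sets. ELOVL6, a fatty acid elongase, was lower at 601, 529, 280 and 462 on hCG day 18, against 889, 1381, 1652 and 1312 on hCG day 10 (-1.47 ± 0.24, adjusted p = 0.0018). MFSD2A, a transporter of lysophospholipids, was lower at 3.42, 29.5, 32.3 and 20.2 on hCG day 18, against 201, 272, 309 and 429 on hCG day 10, with an adjusted p of 1.6e-05. ACADM, a mitochondrial acyl-CoA dehydrogenase (-0.51 ± 0.12, adjusted p = 0.024), and ACSL1, an acyl-CoA synthetase (-0.71 ± 0.19, adjusted p = 0.044), were lower, the second a call lost without any one array (adjusted p up to 0.111) and the first without hCG day 18 arrays 1 or 4 or hCG day 10 arrays 1, 2 or 3 (up to 0.0751). Without hCG day 18 arrays 1 or 4 or hCG day 10 arrays 1, 2 or 3 the count of 5 was 3. The mitochondrial list gave 1 higher gene of 21 (4.76%, against 8.58% of all named genes, median -0.21). It was PPARGC1A, a coactivator of mitochondrial genes, at 69.1, 123, 139 and 56.8 on hCG day 18, against 35.8, 44.1, 17.7 and 14.0 on hCG day 10 (1.35 ± 0.28, adjusted p = 0.012).

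Antioxidant genes had 2 higher and 1 lower of 20 measured (15%, against 8.58% of all named genes, median -0.04). MGST1, a microsomal glutathione transferase, had signals of 4591, 6982, 4862 and 6546 on hCG day 18, against 2837, 2832, 2964 and 2533 on hCG day 10 (1.02 ± 0.17, adjusted p = 0.0030). GCLC, the rate-limiting enzyme of glutathione synthesis, was lower at 240, 253, 333 and 278 on hCG day 18, against 784, 632, 535 and 722 on hCG day 10 (-1.22 ± 0.19, adjusted p = 0.0011) in 3 of 5 probe sets. The metallothionein MT1X was higher at 0.98 ± 0.24 (adjusted p = 0.032). It has near-identical paralogs, its other probe sets ran between -0.27, the brightest, and 0.56, and the call was lost without hCG day 18 arrays 2 or 3 or hCG day 10 arrays 1, 2 or 3 (adjusted p up to 0.102). Of 18 heat shock genes 2 were lower (11.1%, against 8.58% of all named genes), with a median of -0.25 and 15 below 0 by the brightest probe set. The 2 were DNAJB1 (-0.55 ± 0.14, adjusted p = 0.031) and HSPH1 (-0.68 ± 0.17, adjusted p = 0.032), both partners of HSP70. Every array except hCG day 18 array 1 ended at least 1 of these 2 calls (adjusted p up to 0.101 and 0.0897), and the count was 0 without hCG day 18 arrays 3 or 4 or hCG day 10 arrays 2 or 4 and 1 without hCG day 18 array 2 or hCG day 10 arrays 1 or 3. Of 21 lysosome and autophagy genes 3 were higher (14.3%, against 8.58% of all named genes, median 0.14). CTSL, a lysosomal protease, had 4434, 3524, 4852 and 4109 on hCG day 18, against 2385, 1730, 2418 and 2350 on hCG day 10 (0.93 ± 0.17, adjusted p = 0.0040), and SQSTM1, the autophagy receptor p62, was higher at 0.88 ± 0.16 (adjusted p = 0.0041). BECN1, which starts autophagosomes, was higher at 0.42 ± 0.11 (adjusted p = 0.047), a call lost without any array except hCG day 10 array 1 (adjusted p up to 0.131).

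Matrix genes that passed were mostly lower. Of 24 measured, 3 were lower and 1 was higher (16.7%, against 8.58% of all named genes, median -0.24). VCAN, versican, a large proteoglycan of provisional matrix, had signals of 1195, 606, 667 and 1506 on hCG day 18, against 4516, 4987, 2317 and 2608 on hCG day 10 (-1.87 ± 0.32, adjusted p = 0.0033), and all 5 of its probe sets were lower. LAMB1, a laminin chain of basement membranes, was lower at 742, 738, 577 and 613 on hCG day 18, against 1247, 1495, 1396 and 939 on hCG day 10 (-0.90 ± 0.17, adjusted p = 0.0050). MXRA5, a matrix-remodelling proteoglycan, was higher at 1880, 2031, 1922 and 3700 on hCG day 18, against 643, 734, 799 and 768 on hCG day 10 (1.62 ± 0.25, adjusted p = 0.0015). COL5A2, a fibrillar collagen chain, was lower at -0.55 ± 0.13 (adjusted p = 0.027), a call lost without hCG day 18 arrays 1, 2 or 4 or hCG day 10 arrays 3 or 4 (adjusted p up to 0.0841).

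Among 24 proteases of the matrix and their inhibitors 4 were higher and 2 lower (median 0.0042). ADAMTS5, which cuts versican and aggrecan, had 580, 402, 596 and 523 on hCG day 18, against 264, 313, 188 and 290 on hCG day 10 (0.96 ± 0.20, adjusted p = 0.0098) and was higher in 3 of 4 probe sets. ADAM12, a membrane metalloprotease, was lower at 887, 932, 769 and 746 on hCG day 18, against 1387, 1200, 1460 and 1412 on hCG day 10 (-0.70 ± 0.12, adjusted p = 0.0036). RECK (1.09 ± 0.26, adjusted p = 0.024) and TIMP2 (0.59 ± 0.16, adjusted p = 0.043), both inhibitors of matrix metalloproteases, and MMP16, a membrane-type one (0.95 ± 0.24, adjusted p = 0.033), were higher, and MMP7, matrilysin, was lower (-0.83 ± 0.19, adjusted p = 0.018). These 4 calls were lost without at least 4 of the arrays each, with adjusted p-values up to 0.0779, 0.120, 0.105 and 0.0636 in that order, and every array ended at least 1 of them. The count of 6 was 2 to 5 without 1 array, lowest without hCG day 18 array 4 or hCG day 10 array 4 and at 3 without hCG day 18 array 1 or hCG day 10 array 1.

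Adhesion and junction genes were split, 3 higher and 3 lower of 20 (30%, against 8.58% of all named genes, median -0.0040). The integrin chain ITGA2, a collagen receptor, was lower at 225, 237, 211 and 112 on hCG day 18, against 795, 561, 730 and 461 on hCG day 10 (-1.64 ± 0.28, adjusted p = 0.0028), and so was ITGA1, which also binds collagen (-0.75 ± 0.16, adjusted p = 0.015). ITGA6, a laminin receptor chain, was higher at 4203, 4160, 3440 and 3645 on hCG day 18, against 2578, 1678, 1777 and 2280 on hCG day 10 (0.91 ± 0.16, adjusted p = 0.0031), and so were ITGB5, a vitronectin receptor chain (0.90 ± 0.20, adjusted p = 0.015), and TJP1, a scaffold of tight junctions (0.91 ± 0.19, adjusted p = 0.012). CLDN1, a tight junction protein, was lower at -1.27 ± 0.33 (adjusted p = 0.038), a call lost without hCG day 18 arrays 2 or 3 or any one hCG day 10 array (adjusted p up to 0.109). The calls of TJP1 and ITGA1 were lost in the fit of the 8 arrays alone (adjusted p = 0.0532 and 0.0541), and that of ITGB5 under median-centring (0.0550). By the brightest probe set of each gene, 2 were higher and 1 was lower.

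Of 27 ion channels and pumps 3 were higher and 1 was lower (14.8%, against 8.58% of all named genes, median 0.10). TRPM3, a calcium-permeable channel opened by pregnenolone sulphate, had signals of 334, 447, 582 and 325 on hCG day 18, against 54.1, 117, 120 and 119 on hCG day 10 (1.90 ± 0.31, adjusted p = 0.0022). KCNQ1, a voltage-gated potassium channel, was higher at 144, 212, 201 and 210 on hCG day 18, against 67.5, 90.7, 97.5 and 87.1 on hCG day 10 (1.03 ± 0.19, adjusted p = 0.0049). CACNB2, a calcium channel subunit (1.18 ± 0.32, adjusted p = 0.047), was higher and TRPC4, a cation channel (-1.01 ± 0.26, adjusted p = 0.040), lower, both lost without 6 of the arrays (adjusted p up to 0.135 and 0.120), every one of the 8 being among them. The count of 4 was 2 without hCG day 18 arrays 1 or 4 or hCG day 10 arrays 2 or 3.

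Solute carriers gave 2 higher and 2 lower of 22 (18.2%, against 8.58% of all named genes, median 0.02). SLC20A1, a phosphate transporter, was lower at 884, 643, 759 and 812 on hCG day 18, against 3172, 2152, 2073 and 1130 on hCG day 10 (-1.36 ± 0.29, adjusted p = 0.014), and SLC1A3, a glutamate transporter, was higher at 203, 96.2, 139 and 155 on hCG day 18, against 81.6, 55.2, 55.1 and 47.9 on hCG day 10 (1.09 ± 0.20, adjusted p = 0.0049). SLC27A2, a fatty acid transporter (1.63 ± 0.43, adjusted p = 0.041), was higher and SLC17A4, an organic anion transporter (-2.43 ± 0.58, adjusted p = 0.024), lower, and these calls were lost without all arrays but hCG day 10 arrays 2 and 4 and without all but hCG day 18 array 2 and hCG day 10 array 2, with adjusted p up to 0.107 and 0.0793. The count of 4 was 2 without hCG day 18 arrays 1, 3 or 4 or hCG day 10 arrays 1 or 3.

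Neuronal-type genes had 3 higher and 1 lower of 27 (14.8%, against 8.58% of all named genes, median 0.08), DPYSL3 first. HTR2B, a serotonin receptor, was higher at 131, 362, 322 and 291 on hCG day 18, against 48.4, 55.3, 91.1 and 77.6 on hCG day 10 (1.74 ± 0.36, adjusted p = 0.010). NGFR, the low-affinity neurotrophin receptor, was higher at 1696, 677, 707 and 1245 on hCG day 18, against 549, 296, 246 and 253 on hCG day 10 (1.61 ± 0.36, adjusted p = 0.017), a call lost without hCG day 18 arrays 1 or 4 or hCG day 10 arrays 3 or 4 (adjusted p up to 0.0592). TUBB3, a beta-tubulin of neurons, was lower at -0.84 ± 0.16 (adjusted p = 0.0062). The count of 4 was 6 without hCG day 18 array 2.

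Of 30 WNT pathway genes 3 were lower and 0 higher (10%, against 8.58% of all named genes, median 0.06). DKK3, a secreted relative of the WNT inhibitors, had signals of 378, 385, 390 and 282 on hCG day 18, against 756, 868, 755 and 749 on hCG day 10 (-1.10 ± 0.18, adjusted p = 0.0020). TCF7, a transcription factor of the pathway, was lower at -1.07 ± 0.22 (adjusted p = 0.011), in 1 of 3 probe sets. WNT5A, a ligand, was lower at -1.33 ± 0.30 (adjusted p = 0.017), a call lost without hCG day 18 array 1 or hCG day 10 arrays 2 or 3 (adjusted p up to 0.0616).

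Among transcription factors of the gland 6 were lower and 1 was higher of 28 measured (25%, against 8.58% of all named genes, median 0.01). Of all named genes 3.33% were higher and 5.26% lower. By the brightest probe set 4 factors were lower, without RORA and HMGB3, and 1 was higher. By that probe set 14 of the 28 were above 0 and 14 below. GATA6, a GATA factor of steroid-making cells, had signals of 1274, 1373, 1489 and 1845 on hCG day 18, against 2856, 3547, 2966 and 3291 on hCG day 10 (-1.08 ± 0.16, adjusted p = 0.00082). NR1D1, the clock receptor REV-ERB-alpha, was at 25.9, 23.4, 8.78 and 37.3 on hCG day 18, against 99.6, 112, 163 and 165 on hCG day 10 (-1.95 ± 0.25, adjusted p = 0.00027), and RORA, which binds the same sites, was lower at -1.07 ± 0.21 (adjusted p = 0.0067). HMGB3, a chromatin protein, was lower at -1.55 ± 0.18 (adjusted p = 0.00011) in 3 of 4 probe sets, the brightest being the exception at 0.13. SOX9, a factor of testicular fate, was at 3.19, 3.57, 2.95 and 3.59 on hCG day 18, against 31.7, 28.4, 22.2 and 47.9 on hCG day 10 (adjusted p = 0.00058). Its signals were near the floor throughout, so the size of its change ran from -2.90 with an added constant of 1 to -0.51 with 64. ELF5 is given above. TOB1, an antiproliferative factor, was higher at 3489, 3642, 3598 and 3956 on hCG day 18, against 2026, 2177, 2197 and 1992 on hCG day 10 (0.80 ± 0.15, adjusted p = 0.0054). CEBPA, a CCAAT-binding factor, did not pass, with 1853, 1269, 1489 and 2770 on hCG day 18, against 1376, 1410, 1129 and 2605 on hCG day 10 (0.19 ± 0.28, adjusted p = 0.82). The 7 calls held without each array, and that of TOB1 was lost in the fit of all 20 arrays (adjusted p = 0.0615).

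**Figure D4:**
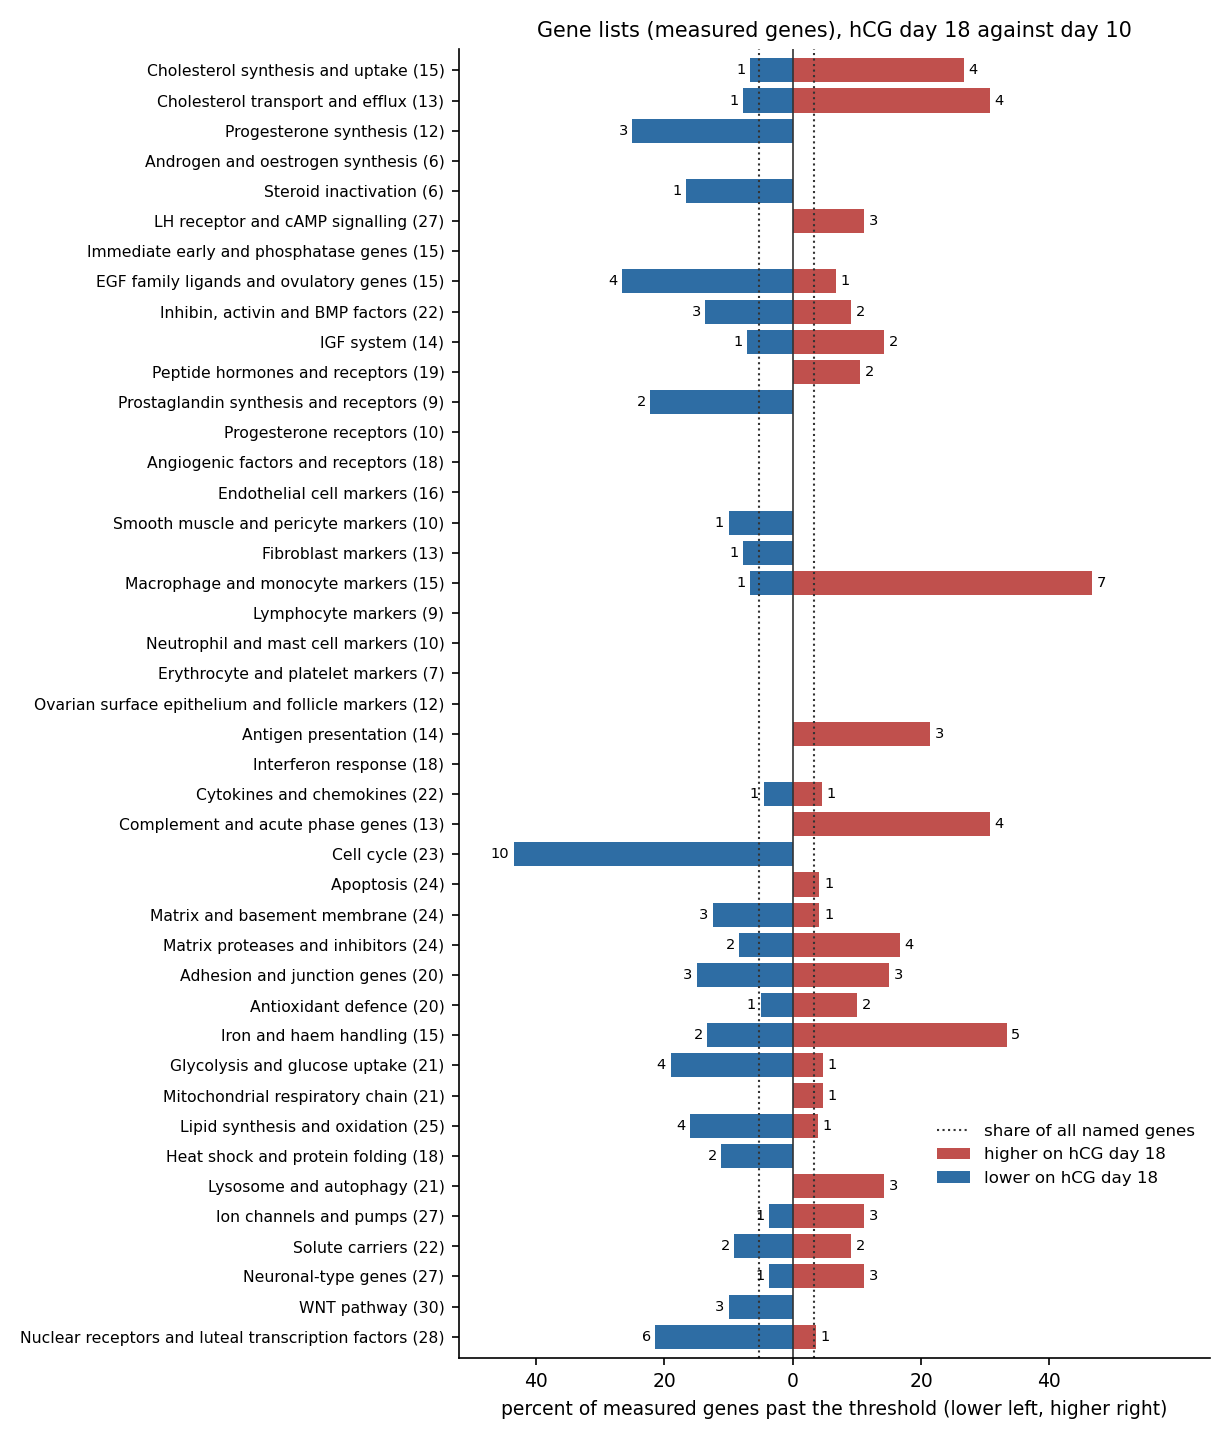
Percent of the measured genes of each of 43 lists (number measured in brackets) that were higher (red, right) or lower (blue, left) on hCG day 18 than on hCG day 10, with the number of genes at the end of each bar. Dotted lines mark the shares over all named genes, 3.33% higher and 5.26% lower. Cell cycle genes have the longest bar to the left with 10 of 23, and macrophage markers the longest to the right with 7 of 15.

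The group means of hCG days 12 and 15, which took no part in the contrast, mostly lay between the 2 ends. Of the 1005 higher probe sets, the day 12 mean lay between the 2 ends for 86.2% and the day 15 mean for 89.7%, against 40.0% and 42.5% of all probe sets. Of the 1324 lower ones these shares were 88.5% and 86.6%. The 4 means were in order of day for 676 higher probe sets (67.3%) and 917 lower ones (69.3%), against 16.3% of all probe sets. Since the ends were chosen for their distance, these shares describe the courses and are not a test. The median share of the change that had been reached was 35.4% by day 12 and 62.0% by day 15 for higher probe sets, and 48.4% and 74.8% for lower ones.

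Courses differed between genes. HP averaged 69.2 ± 29.0 in untreated glands and 224 ± 243, 366 ± 354, 843 ± 583 and 5862 ± 608 on hCG days 10, 12, 15 and 18 (SD, n = 4 each), so most of its increase lay after day 15. CYBRD1 averaged 1289 ± 327 untreated and 1192 ± 141, 2898 ± 640, 4614 ± 694 and 6131 ± 1056 on these days, higher at each later one. AREG averaged 8115 ± 1402 untreated and 7158 ± 1124, 2957 ± 1243, 1166 ± 649 and 626 ± 341 on these days, with the largest step between days 10 and 12. HSD3B2 averaged 8320 ± 1213 untreated and 10324 ± 1530, 6507 ± 1402, 4347 ± 1321 and 2340 ± 447, with a lower mean at each later day. For HP, DPYSL3, CYBRD1, AREG and HSD3B2, the hCG day 18 mean thus lay beyond both day 10 groups.

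Other genes had an hCG day 18 mean near the untreated one and an hCG day 10 mean away from both. IGF1 averaged 699 untreated, 1959 on hCG day 10 and 725, 578 and 759 on hCG days 12, 15 and 18. ELF5 averaged 51.4 untreated, 541 on hCG day 10 and 55.2, 27.6 and 37.8 on the later days. FST averaged 375, 1420, 774, 667 and 508 in the same order. HTR2B, at 403 untreated, 68.1 on hCG day 10 and 153, 300 and 276 later, and MXRA5, at 2327 untreated, 736 on hCG day 10 and 2271, 2258 and 2383 later, had the opposite shape. For these 5 genes the untreated mean was closer to the hCG day 18 mean than to the hCG day 10 mean. Over all changed probe sets, the untreated mean lay between the 2 ends for 760 higher and 969 lower ones, beyond the hCG day 10 mean for 223 and 272, and beyond the hCG day 18 mean for 22 and 83. The untreated mean thus lay between the 2 ends for 75.6% of the higher and 73.2% of the lower probe sets. Over all probe sets this share was 35.7%, with 32.6% beyond the hCG day 10 mean and 31.6% beyond the hCG day 18 mean. The changed probe sets were chosen for the distance of their 2 ends. A mean of another group falls between such ends more easily, so these shares are a description and not a test.

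**Figure D5:**
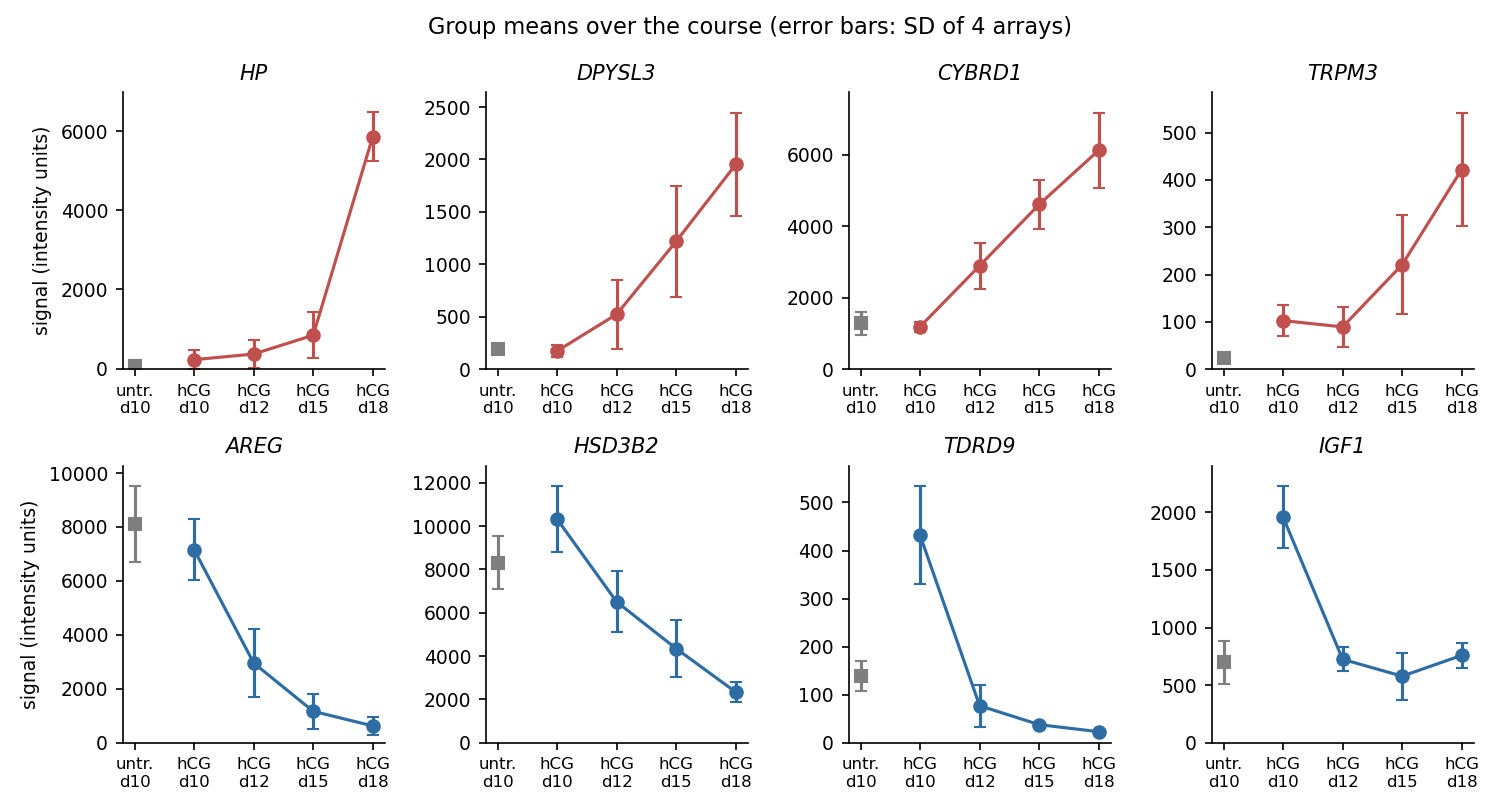
Mean signal in intensity units (y axis from 0, its own scale in each panel) of 8 genes in the untreated day 10 group (grey squares) and on hCG days 10, 12, 15 and 18 (equal spacing on the x axis, circles joined by lines), with SD over 4 arrays as error bars. HP, DPYSL3, CYBRD1 and TRPM3 are highest on hCG day 18, AREG, HSD3B2 and TDRD9 are lowest there, and IGF1 has its peak on hCG day 10.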

How the data were processed

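The deposited values are 1 linear intensity per probe set and array, produced by the authors in GCOS, the Affymetrix software, per the submitters' processing notes. Its version and scaling target are not given in the sources used here. Tested on the table, each of the 8 arrays had a 2% trimmed mean of 200.01 to 200.02, so each was scaled to a common target, and no detection calls were used. Of 52865 probe sets, 158 array controls were left out. Gene symbols came from the platform annotation: 24956 probe sets carry 1 symbol (14132 genes), 361 several and 27390 none. Probe set sequences and genome positions were not used here.

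Signals were taken as log2(value + 16), with no further scaling or filter, and a log2 change understates the change of dim genes. A linear model with a mean for each hCG group was fitted to the 16 hCG arrays with limma 3.58.1 under R 4.3.3, and hCG day 18 was contrasted with hCG day 10. Using all 16 arrays pools the spread over the 4 groups. The untreated arrays enter only an alternative and the group means. A change is given with its standard error and a mean signal with its standard deviation. Quality measures were tested by exact permutation, two-sided. In data simulated for this contrast with 52707 probe sets, 63 of 100 changed 2-fold and 94 of 100 changed 4-fold were recovered, with 3 unchanged ones called. Only probe sets brighter than the median one were given a change, so these rates do not give the recovery of dim probe sets.

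The groups compared, the 43 gene lists (1010 genes, 747 measured) and the rules were chosen with earlier results of these data known. The text names the 12 largest changes in each direction past the threshold whose arrays did not overlap, up to 4 genes per list past it by smallest p (otherwise 2 as values), and a panel of reference genes. Other list members, past the threshold or not, were named after their values were seen. List counts use the probe set with the smallest p per gene, list medians the brightest. The alternatives were all 20 arrays, the 8 arrays alone, a fit without hCG day 12 array 1 and hCG day 15 array 2, median-centring, quantile normalisation, constants of 1 and 64, the upper 50% of probe sets, a replicate block, array weights, an intensity trend, a fold of at least 2, 1 probe set per gene, and leaving out each array. The brightest probe set for list counts and named genes was added after seeing the data. Plots were made with matplotlib 3.10.9 under Python 3.11.15.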

Additional observations from a re-analysis of the deposited data

Results flagged for a closer look

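In 340 groups of 4 arrays (170 named genes in hCG day 18 and in hCG day 10), 26 held an array that stood apart from the other 3 by Dixon's test on the log2 scale. Chance flags about 1 in 20 groups, and no array was left out for this.

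Among the hCG day 18 arrays, array 1 was low for KANK4 (320, the others 1198 to 1321) and KCNQ1 (144, the others 201 to 212), and high for IRF1 (290, the others 193 to 201). Array 2 was high for FOSL2 (661, the others 443 to 472) and SLC16A1 (624, the others 433 to 458). Array 3 was high for CCNB2 (93.2, the others 48.3 to 52.9). Array 4 was high for MXRA5 (3700, the others 1880 to 2031) and TFRC (2004, the others 1688 to 1711), and low for ITGA2 (112, the others 211 to 237) and DKK3 (282, the others 378 to 390).

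Among the hCG day 10 arrays, array 1 was high for TFPI2 (3013, the others 1854 to 2003) and LYZ (1692, the others 1034 to 1085). It was low for RLN2 (2470, the others 8187 to 9766), TRPM3 (54.1, the others 117 to 120) and ESR2 (5.79, the others 18.0 to 19.9). Array 2 was low for HSD3B2 (8062, the others 10724 to 11335) and CTSL (1730, the others 2350 to 2418). It was high for DKK3 (868, the others 749 to 756) and for the floor-level signals of GP9 (16.8, the others 4.80 to 6.22) and EPCAM (4.31, the others 0.677 to 0.710). Array 3 was low for KLRD1 (1211, the others 1373 to 1393). Array 4 was high for PYURF (98.1, the others 48.3 to 54.5) and IRF1 (197, the others 139 to 140), and low for CYP3A4 (1397, the others 2958 to 3397), APOA1 (7786, the others 11492 to 12402) and IRF7 (52.1, the others 85.6 to 94.2). The calls of APOA1, LYZ and RLN2 held without the array that stood apart, though not without some of the others.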

How the results depend on the processing

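The count of 2329 changed probe sets was 1980 to 2993 under 9 alternatives: all 20 arrays, the 8 arrays alone, the fit without hCG day 12 array 1 and hCG day 15 array 2, median-centring, quantile normalisation, a constant of 64, the upper 50% of probe sets, an intensity trend and array weights. Under median-centring, however, 628 were higher. A constant of 1 gave 1472, with 582 higher. Counted with 1 probe set per named gene there were 1286 (498 higher, 788 lower), where 14132 were tested, and at a fold of at least 2 there were 941 (382 and 559). Without 1 array the count was 1485 to 1909, with 593 to 832 higher and 892 to 1077 lower, lowest without hCG day 18 array 1 (1485 changed, 593 higher). Without hCG day 18 array 3, 633 were higher, and without hCG day 10 array 3, 623.

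The labels give both groups replicate numbers 1 to 4 without saying what they share. Deviations from the group means correlated at 0.468, 0.0991, 0.148 and 0.242 between arrays of the same number. Arrays 1 and 4 of hCG day 18 correlated best with their own number and arrays 2 and 3 did not, so the numbers were not taken as pairs. A replicate block gave 2129 changed probe sets (921 higher, 1208 lower).

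Of the 146 calls of named genes, 95 were kept without each array, and 90 of these in every other refit that held their probe set. Of the 146, 96 were at least 2-fold, 77 of them among the 90. The replicate block ended 18 calls, those of EBP, APOA1, SMAD6, RLN2, PSMB10, CD74, C1S, DNAJB1, BECN1, CACNB2, SLC27A2, MVD, APOE, ID4, MMP16, TIMP2, PFKFB3 and ACSL1. The fit of all 20 arrays ended those of HSD17B7, RLN2, PSMB10, CD74, C1S, BECN1, S100A2, APOE, ID4 and TOB1. The 8 arrays alone ended 33, a constant of 1 ended 40 and one of 64 ended 4, median-centring 22 and quantile normalisation 2. No call changed sign in these refits of the same probe set.

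The brightest probe set of each gene, an alternative chosen after seeing the data, kept 122 of the 146 calls. It called C1QA the other way (1.07), and 23 did not pass, 4 of them with the opposite sign, PYURF (-0.0363), MBLAC2 (-0.1241), MT1X (-0.2712) and HMGB3 (0.1310). The other 19 were CYP3A4, HSD17B7, NR5A2, CREM, PRLR, HPGD, PSMB10, CCL8, COL5A2, ITGA1, GCLC, GPI, HSPH1, WNT5A, APOE, CLDN1, ITGB5, HFE and RORA. ESR2 (-0.0172) and IRF7 (0.1634), which did not pass, also changed sign. STAR and CEBPA, which did not pass, changed sign, STAR to -0.0043 under quantile normalisation and CEBPA to -0.0258 without hCG day 18 array 4 (0.4382 at most without another array). Signals near the floor limit the size of the change for 227 changed probe sets.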
